A study of Sus scrofa with 8 samples.

Results

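The 7 genes described here, TFAP2A, TFAP2B, FOXD3, EDNRB, CDH6, CDH19 and SCRG1, are known from the neural crest and from the Schwann cell precursors that form from it. The rule that chose them gives their names and uses no measured value, though earlier results of these data were known when it was made, and all 7 were found among the 21301 genes of the count matrices. The study made single-cell RNA-seq libraries from pig embryos of the Tibetan breed (ZZ) and of the Duroc × Tibetan cross (DZ). Somite tissue was taken at embryonic day 16, 18 and 21 (E16, E18, E21) and myotome tissue at day 28 (E28), so that the tissue name changed together with the last stage. Each library pooled 5 embryos of the same sow, and there was 1 library for each stage and breed. All 8 libraries were analysed, with E16 and E18 called early and E21 and E28 called late.

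The neural crest is a transient population that leaves the dorsal neural tube and migrates through the somites. It gives rise to peripheral neurons and glia, and to pigment cells. The AP-2 factors TFAP2A and TFAP2B act early in its specification, FOXD3 keeps migrating cells in a progenitor state, and SOX10 is kept in the cells that enter the glial and pigment lineages. Schwann cell precursors are SOX10-expressing cells that travel along growing nerves and depend on axonal signals.

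A cell was counted as SOX10+ when it held at least 1 SOX10 molecule, counted as a unique molecular identifier (UMI). By this rule 2434 of 74147 kept cells were SOX10+, and 43470 further cells passed a gate of another cell type (neuron, neural tube progenitor, endothelial, erythroid, macrophage, epithelial, mesodermal, chondrogenic, connective tissue or muscle). In the order ZZ then DZ, the SOX10+ cells numbered 116 and 195 at E16, 288 and 643 at E18, then 473 and 275 at E21, and 213 and 231 at E28. They made up 2.13% and 2.05% of the kept cells at E16, 3.097% and 6.83% at E18, then 4.52% and 2.99% at E21, and 2.16% and 2.11% at E28. The mean share was 3.53% ± 2.25 (SD, n = 4) in early and 2.94% ± 1.13 (n = 4) in late libraries, a difference of -0.585 percentage points that was within the spread between libraries (exact two-sided permutation test, p = 0.686; the smallest p that 70 splits allow is 0.0286). That difference was 0.517 points without the E18 DZ library.

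The gate was checked against other genes of the crest and its glia. Summed over the 9 of 10 listed check genes that were found, their level was 1602 to 1946 CPM (counts per 1000000 UMIs) in early and 1976 to 2596 CPM in late SOX10+ cells. The same sum was 1083 to 1427 CPM in early and 943 to 1396 CPM in late chondrogenic cells, and 573 to 945 and 277 to 499 CPM in erythroid cells. ERBB3, the neuregulin receptor on which Schwann cell precursors depend, had 1201 ± 170.0 CPM (SD, n = 8) in SOX10+ cells and 574 ± 236 CPM in erythroid cells, and the lowest SOX10+ level, 867 CPM, was below the highest erythroid one, 897 CPM. S100B was not found under that name. In each library, 33.0% to 66.7% of the SOX10+ cells held a single SOX10 UMI, and 30.7% to 60.4% also met the gate of another cell type. Of cells meeting the chondrogenic gate, 19.8% to 25.9% held a SOX10 UMI in early and 4.38% to 7.41% in late libraries, against 1.24% to 2.08% and 0 to 1.41% of the erythroid cells. The SOX10+ cells are therefore called by their rule and not by a cell type name.

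Kept UMIs ranged from 39852689 to 57568895 per library, and the SOX10+ cells of 1 library held 1012134 to 4616124 UMIs. Their median depth per cell was 3916 to 8396.5 UMIs, against 4406 to 11665 in erythroid cells. In every library it was above the median of all kept cells, from 8396.5 against 6160.5 UMIs in E16 ZZ to 3916 against 3405 in E28 DZ. The E16 ZZ library lost 39.16% of its barcodes to the limit on mitochondrial UMIs, and the other libraries 1.05% to 9.15%. No pair of libraries shared more than 49 cell barcodes, 0.453% of the smaller library. A sum over cells does not tell more cells with an RNA from more RNA per cell, so shares of cells with a UMI are given beside the levels. The p-values measure only the spread between these libraries, in which the breeds served as the replicates of a stage, and intervals cover counting error only. The reads came from the 3′ end of transcripts, and levels are not compared between genes.

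On the pig genome Sscrofa11.1 in the RefSeq annotation, TFAP2A lay at chr7:7221654-7244626 on the minus strand and TFAP2B at chr7:44745653-44774563 on the plus strand, so both AP-2 genes were on chromosome 7. FOXD3, a gene of 1 or 2 exons, lay at chr6:149153397-149155576 (minus), EDNRB at chr11:50073300-50102879 (minus), CDH6 at chr16:17531862-17660081 (plus), CDH19 at chr1:155669361-155758550 (plus) and SCRG1 at chr14:16620592-16664082 (plus).

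The 300 bases before the most 5′ annotated start are shown for EDNRB, CDH6 and CDH19, the members that rose most with stage or from E16 to E18. They were read from the genome on the strand of the gene, 5′ to 3′. Capitals mark matches, on either strand, to the SOX motif ACAAAG and the AP-2 motif GCCNNNGGC. The windows are chr11:50102880-50103179 for EDNRB, chr16:17531562-17531861 for CDH6 and chr1:155669061-155669360 for CDH19.
EDNRB: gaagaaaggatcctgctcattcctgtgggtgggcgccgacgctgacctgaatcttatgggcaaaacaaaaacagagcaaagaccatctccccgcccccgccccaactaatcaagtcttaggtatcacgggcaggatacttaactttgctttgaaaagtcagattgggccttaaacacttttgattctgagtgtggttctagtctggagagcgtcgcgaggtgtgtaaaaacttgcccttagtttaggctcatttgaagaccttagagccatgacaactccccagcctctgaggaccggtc
CDH6: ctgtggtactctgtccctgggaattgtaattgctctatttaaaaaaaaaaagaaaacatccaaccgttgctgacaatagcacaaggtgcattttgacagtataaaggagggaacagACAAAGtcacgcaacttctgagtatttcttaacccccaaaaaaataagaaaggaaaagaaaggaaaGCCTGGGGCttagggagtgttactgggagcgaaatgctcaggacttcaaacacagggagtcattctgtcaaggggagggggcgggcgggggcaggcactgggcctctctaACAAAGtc
CDH19: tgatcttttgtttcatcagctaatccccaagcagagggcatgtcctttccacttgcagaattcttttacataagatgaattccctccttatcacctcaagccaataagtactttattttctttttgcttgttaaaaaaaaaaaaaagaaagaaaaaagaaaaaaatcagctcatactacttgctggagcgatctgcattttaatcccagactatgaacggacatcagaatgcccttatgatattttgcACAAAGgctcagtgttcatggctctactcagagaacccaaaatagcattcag
The EDNRB window held neither motif. The CDH6 window held 2 SOX matches, at -184 and -8 from the annotated start, and 1 AP-2 match at -118. The CDH19 window held 1 SOX match at -52. The windows of TFAP2A, TFAP2B, SCRG1 and SOX10 held no match, and that of FOXD3 held 1 AP-2 match at -243. Windows of the same length were read before the annotated protein-coding genes, leaving out those with unknown bases or past a sequence end. Of these 20663 windows, 15.2% held the SOX motif and 24% the AP-2 motif, and a match is a description of the letters and not of binding.

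All 6 members with enough counts to test were higher in SOX10+ cells than in the other gated cells of the same libraries, by 3.52 to 6.12 on the log2 scale. For each of the 6, the lowest SOX10+ sum lay above the highest sum of other gated cells. How many of all genes had such a gap between groups was not counted, here or in the comparisons below. Across all genes, 6.87% were higher and 15.1% were lower in SOX10+ cells (edgeR quasi-likelihood test with library as a block, Benjamini-Hochberg adjusted p under 0.05). The median log2 difference of the 6 members was 4.19, and that of all genes tested was -0.06.

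TFAP2A, the AP-2 alpha factor, had 43.3 and 34.2 CPM in SOX10+ cells at E16 (ZZ and DZ), 58.1 and 86.7 at E18, then 99.0 and 71.0 at E21, and 77.7 and 106 at E28. In other gated cells it had 4.69 to 8.93 CPM up to E21 and 0.789 and 0.793 CPM at E28. The log2 difference between the kinds of cells was 3.94 ± 0.483 (SE; adjusted p = 0.000153, edgeR).

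TFAP2B, the AP-2 beta factor, had 125 and 186 CPM in SOX10+ cells at E16, 207 and 217 at E18, then 141 and 85.0 at E21, and 86.5 and 115 at E28. Its levels were highest at E18, and the 3 lowest of the 8 were all late. In other gated cells it had 0.698 to 16.6 CPM, a log2 difference of 4.22 ± 0.363 (SE; adjusted p = 1.32e-05, edgeR).

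FOXD3, the forkhead repressor of migrating crest, was close to absent from the matrices. It had 3 UMIs in the 2434 SOX10+ cells, 1 each in the E21 ZZ, E21 DZ and E28 DZ libraries, and 3 UMIs in the other gated cells. All 74147 kept cells together held 8 FOXD3 UMIs among 382956742. In early SOX10+ cells it had 0 of 9458756 UMIs, which allows a level of up to 0.317 CPM. It was never tested, and its level in SOX10+ cells cannot be ordered by stage at this depth.

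EDNRB, the endothelin receptor B of crest, melanoblasts and enteric precursors, had 21.2 and 25.1 CPM in SOX10+ cells at E16, 48.2 and 57.2 at E18, then 216 and 274 at E21, and 278 and 270 at E28. The levels went up at E18 and again at E21, and every late library lay above every early one. Other gated cells had 1.31 to 19.8 CPM, which gave a log2 difference of 3.52 ± 0.805 (SE; adjusted p = 0.00824, edgeR).

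CDH6, a type II cadherin of premigratory and migrating crest, had 96.7 and 148 CPM in SOX10+ cells at E16, 276 and 253 at E18, then 342 and 269 at E21, and 314 and 388 at E28. The E16 libraries lay below the other 6, which overlapped. Other gated cells had 4.76 to 27.0 CPM, a log2 difference of 4.16 ± 0.394 (SE; adjusted p = 2.57e-05, edgeR).

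CDH19, a cadherin known as a marker of Schwann cell precursors, had 30.4 and 23.7 CPM in SOX10+ cells at E16, 23.7 and 29.7 at E18, then 95.4 and 81.5 at E21, and 130.1 and 80.0 at E28. The 4 early libraries were close together and all lay below the late ones. CDH19 had the largest log2 difference of the members, 6.12 ± 0.457 (SE; adjusted p = 5.88e-06, edgeR), with 0.139 to 0.952 CPM in the other gated cells of 7 libraries and 9.35 CPM in those of the E28 ZZ library.

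SCRG1, a small secreted protein expressed in glia and in cartilage, had 481 and 379 CPM in SOX10+ cells at E16, 375 and 355 at E18, then 584 and 581 at E21, and 589 and 521 at E28. The late libraries all lay above the early ones, with E16 ZZ the highest of the early. Other gated cells had 5.72 to 44.5 CPM, a log2 difference of 4.93 ± 0.259 (SE; adjusted p = 8.93e-07, edgeR).

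**Figure D1:**
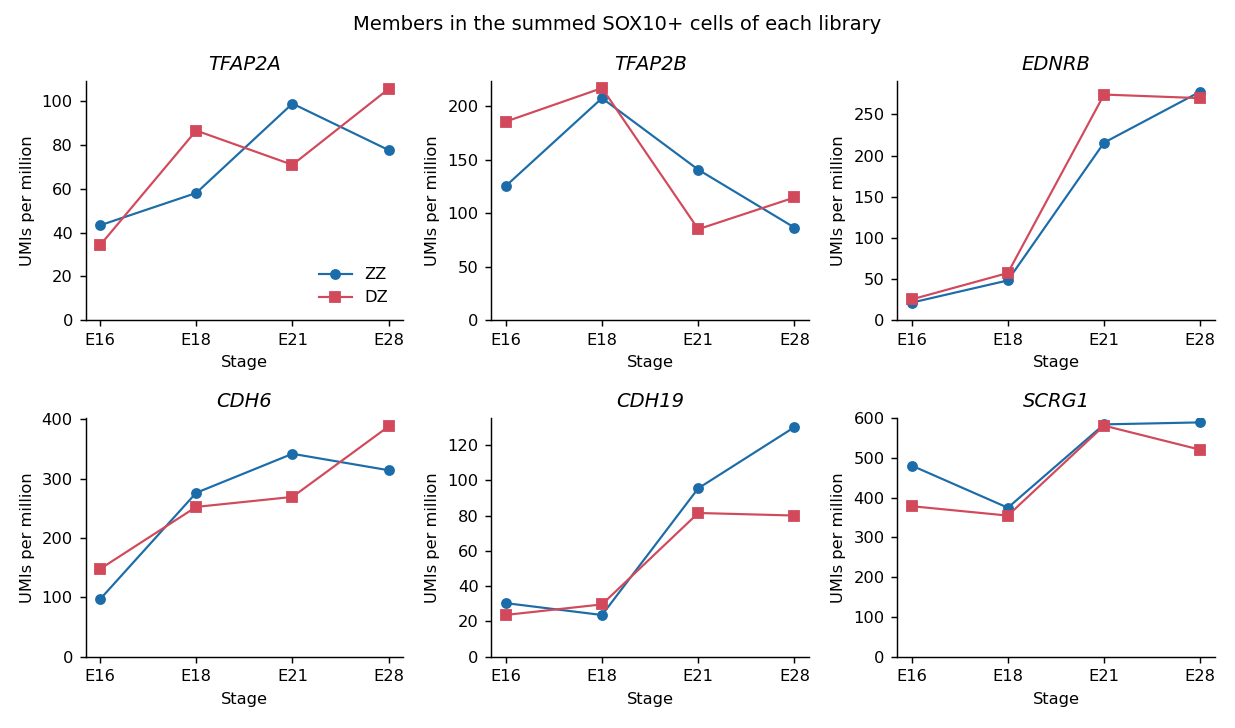
Levels of TFAP2A, TFAP2B, EDNRB, CDH6, CDH19 and SCRG1 in SOX10+ cells by stage, in CPM of the summed UMI counts. Each library is 1 point, and a line joins the libraries of each breed, ZZ or DZ. EDNRB went from 21.2 and 25.1 CPM at E16 to 278 and 270 CPM at E28, and CDH19 rose between E18 and E21. FOXD3 is not drawn.

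The share of SOX10+ cells with an EDNRB UMI was 17.2% and 14.4% at E16, 25.4% and 31.1% at E18, then 58.8% and 56.4% at E21, and 38.5% and 42.0% at E28. The exact 95% binomial interval of the E16 ZZ share was 10.9% to 25.4%, and that of the E21 ZZ share was 54.2% to 63.3%. With each cell thinned to 2000 UMIs, which left out 57 shallower SOX10+ cells, the EDNRB shares were 4.39% and 2.67%, then 11.2% and 12.0%, then 34.7% and 31.6%, and last 28.7% and 27.2%. The order of the periods was thus the same with EDNRB counted at equal depth, but the SOX10+ cells were still chosen on unthinned counts. After thinning, a mean of 36.6% of these cells at E16, 47.2% at E18 and 60.6% at E21 still held a SOX10 UMI. The share of erythroid cells with an EDNRB UMI was at most 4.29% unthinned and 4.41% thinned. The thinned EDNRB shares at E16 were within that range of the erythroid cells.

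CDH19 was counted in 24.1% and 12.8% of SOX10+ cells at E16, 15.3% and 17.6% at E18, then 34.7% and 31.3% at E21, and 39.9% and 26.4% at E28. Thinned, these shares were 1.75% to 6.16% in early and 12.2% to 19.6% in late libraries, and at most 0.150% of erythroid cells held a CDH19 UMI unthinned. TFAP2B was counted in 46.6% to 66.7% of early and 26.8% to 39.3% of late SOX10+ cells, and in 19.3% to 34.7% and 12.9% to 21.8% after thinning, so that the periods overlapped at equal depth. TFAP2A was counted in 21.5% to 42.9%, CDH6 in 41.3% to 66.3% and SCRG1 in 65.3% to 87.1% of SOX10+ cells. In erythroid cells these shares were at most 3.19% for TFAP2A, 2.13% for TFAP2B, 3.89% for CDH6 and 7.14% for SCRG1.

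**Figure D2:**
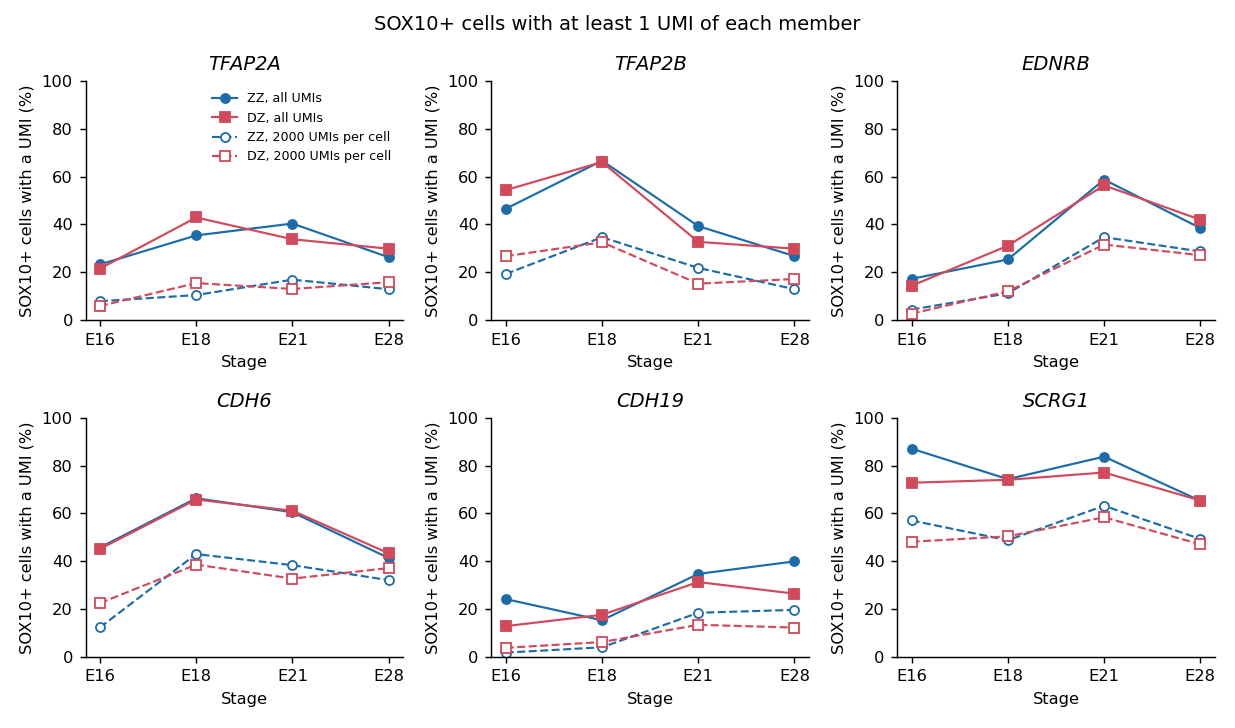
Percent of SOX10+ cells with at least 1 UMI of each member but FOXD3 in each library, as counted and after each cell was thinned to 2000 UMIs. The thinned EDNRB shares were 2.67% to 12.0% in early and 27.2% to 34.7% in late libraries.

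Of the 6 members tested between periods in SOX10+ cells, EDNRB and CDH19 rose, TFAP2B fell, and TFAP2A, CDH6 and SCRG1 did not pass the test. Across all genes, 14.7% rose and 13.1% fell (edgeR, breed as a covariate). EDNRB was 37.9 ± 17.5 CPM (SD, n = 4) in early and 259 ± 29.3 CPM in late libraries, a log2 change of 2.63 ± 0.243 (SE; adjusted p = 3.33e-05, edgeR). CDH19 went from 26.9 ± 3.68 to 96.8 ± 23.3 CPM, a log2 change of 1.73 ± 0.187 (SE; adjusted p = 9.79e-05, edgeR). TFAP2B went from 184 ± 41.1 to 107 ± 26.4 CPM, a log2 change of -0.88 ± 0.188 (SE; adjusted p = 0.00538, edgeR), although the E16 ZZ library lay within the late range. TFAP2B lost its call when SOX10+ cells that also met another gate were left out, with a log2 change of -0.57 (adjusted p = 0.0759, edgeR). The median log2 change of the 6 members was 0.60, and that of all genes tested was 0.03.

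The 3 members that did not pass had log2 changes above 0. TFAP2A changed by 0.54 (adjusted p = 0.0978, edgeR), CDH6 by 0.66 (adjusted p = 0.0640) and SCRG1 by 0.42 (adjusted p = 0.0534), and the early and late libraries did not overlap for SCRG1. These results depended on single libraries and on the processing: TFAP2A stayed uncalled in 17 of 19 alternatives, CDH6 in 12 of 19 and SCRG1 in 13 of 19. Without E18 DZ the log2 change of TFAP2A was 0.86 (adjusted p = 0.00983), without E18 ZZ that of CDH6 was 0.94 (adjusted p = 0.0196), and without E16 ZZ that of SCRG1 was 0.52 (adjusted p = 0.0317). SOX10 itself, which chose the cells, was 206 to 326 CPM in early and 332 to 488 CPM in late SOX10+ cells.

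RNAs that mark other cell types were also counted in the SOX10+ cells, and their sums were not tested between periods. Early and late sums did not overlap for the erythroid, epithelial, connective tissue and lateral mesoderm markers, and overlapped for the other lists given here. Summed lateral mesoderm markers (all 5) were 13.8 to 50.2 CPM in early and 0 to 11.6 CPM in late SOX10+ cells. Summed erythroid markers (8 of 9 found) were 119 to 1727 CPM in early and 4.94 to 57.7 CPM in late SOX10+ cells, summed epithelial markers (all 7) 22.7 to 96.9 and 0 to 8.89 CPM, and summed neuron markers (all 6) 421 to 519 and 144 to 476 CPM. Summed connective tissue markers (all 6) were 18.1 to 50.7 CPM in early and 92.3 to 734 CPM in late cells, and chondrogenic markers (9 of 10 found) 616 to 715 and 553 to 2944 CPM. Summed neural tube progenitor markers (4 of 6 found) were 1.84 to 28.8 and 20.9 to 191 CPM, and skeletal muscle markers (all 10) 6.45 to 29.5 and 19.2 to 204 CPM. The part of these RNAs in the changes above was not tested. Without the SOX10+ cells of another gate, the log2 change was 3.14 for EDNRB (adjusted p = 6.68e-07, edgeR) and 1.63 for CDH19 (adjusted p = 0.000191). With SOX10+ set at 2 UMIs or more it was 2.80 for EDNRB and 2.06 for CDH19, and both were called in every alternative run.

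Within the SOX10+ cells, the members were higher where SOX10 was counted more than once. In all 8 libraries, TFAP2A, TFAP2B and SCRG1 had more CPM in cells with 2 or more SOX10 UMIs than in cells with 1, and EDNRB, CDH6 and CDH19 did so in 7 of 8. In late libraries the mean EDNRB level was 148.8 CPM in cells with 1 SOX10 UMI and 353 CPM in cells with more. In the same libraries, cells that met no other gate had a mean of 369 CPM of EDNRB and 447 CPM of CDH6, and cells that met another gate had 128 and 188 CPM. In early libraries these means were 36.0 and 196 CPM without and 38.5 and 191 CPM with another gate, and the cells without were higher in 2 of 4 libraries for each gene. Cells with more UMIs in all are more likely to hold several of any RNA, and CPM is taken per UMI of the same cells.

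Between successive stages, EDNRB and CDH6 rose from E16 to E18, when 0.587% of all genes rose. The log2 change was 1.04 ± 0.229 (SE; adjusted p = 0.0314, edgeR with a 4-level stage factor) for EDNRB and 0.96 ± 0.188 (adjusted p = 0.0184) for CDH6. The EDNRB call was lost without any 1 of the 4 libraries of these stages, with changes of 0.99 to 1.06, and also with DESeq2 (0.99), at a mitochondrial limit of 5% (1.05), with SOX10+ as 2 UMIs or more (1.09) and without SOX10+ cells of another gate (1.08). The CDH6 call was lost without E16 ZZ (0.65), E18 ZZ (0.81) or E18 DZ (1.10) and at a mitochondrial limit of 5% (0.75). The E16 files came from another version of the counting software than the rest, and the version and the stage cannot be told apart.

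From E18 to E21, EDNRB, CDH19 and SCRG1 rose and TFAP2B fell, when 9.73% of all genes rose and 7.15% fell. EDNRB changed by 2.20 ± 0.172 on the log2 scale (SE; adjusted p = 2.27e-07, edgeR) and CDH19 by 1.65 ± 0.216 (adjusted p = 4.85e-05). SCRG1 changed by 0.67 ± 0.155 (adjusted p = 0.00666) and lost its call without E18 ZZ (0.62), E18 DZ (0.70) or E21 DZ (0.49) and at a mitochondrial limit of 5% (0.44). TFAP2B changed by -0.91 ± 0.203 (adjusted p = 0.00490) and lost its call without E18 ZZ (-0.92) or E21 DZ (-0.52), and it was -1.42 without E21 ZZ. From E21 to E28, none of the 6 members changed (edgeR, 0 also at an unadjusted p under 0.05), and 3.56% of all genes did. Their log2 changes ran from -0.24 for TFAP2B to 0.20 for CDH19. The step from E21 to E28 also joined somite to myotome tissue, which cannot be told apart from the stage.

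The breeds did not differ detectably in any member. No member was called between DZ and ZZ in SOX10+ cells with stage as a block (edgeR; 0 of 6 also at an unadjusted p under 0.05), where 0.0515% of all genes were called and 621 of 9715 had an unadjusted p under 0.05. The log2 differences DZ minus ZZ ran from -0.26 ± 0.165 (SE) for CDH19 to 0.17 ± 0.130 for EDNRB. The change from early to late differed between the breeds, DZ minus ZZ, by -0.48 ± 0.368 (SE) for CDH19 to 0.15 ± 0.317 for SCRG1, with an adjusted p of 0.9999 for each member (edgeR interaction of period and breed).

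**Figure D3:**
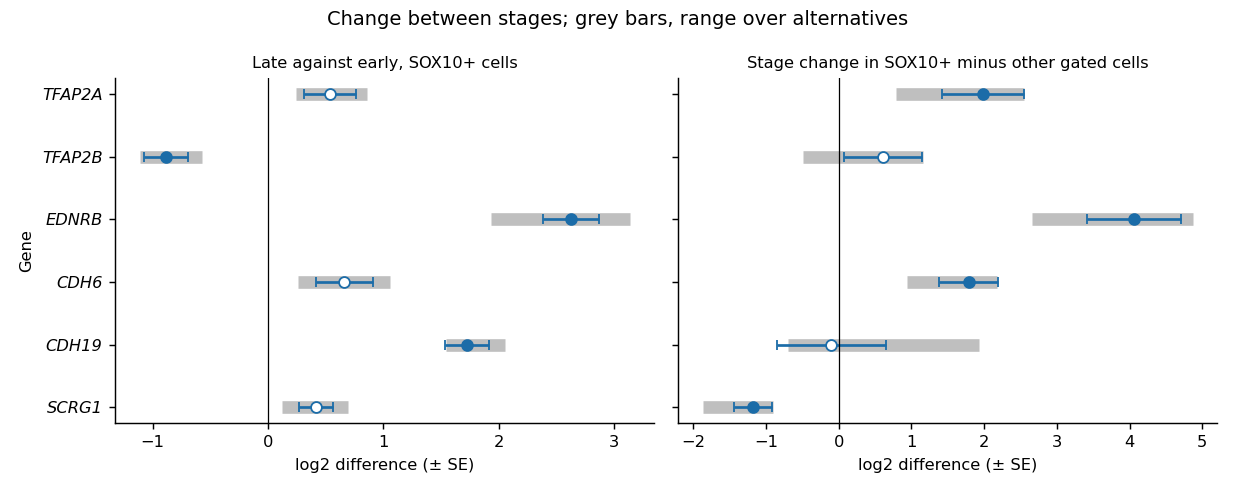
Log2 change of the 6 tested members in SOX10+ cells for late against early, and the difference between that change and the one in other gated cells. Thin bars are 1 standard error, grey bars are the range over the alternatives, and filled points were called. EDNRB changed by 2.63 and CDH19 by 1.73 between the periods.

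The change with stage differed between SOX10+ and other gated cells for 4 of the 6 members. Across all genes, this difference was above 0 for 5.67% and below 0 for 2.66% (edgeR interaction of period and kind of cell). The other gated cells were of different types in the periods: of 3234 in E16 ZZ, 1183 were lateral mesoderm and 672 epithelial cells, and of 7570 in E28 ZZ, 4785 were connective tissue cells and 0 were lateral mesoderm or neural tube progenitors. A change in these sums therefore cannot be told apart from a change in the share of each gate. It was 4.05 ± 0.645 (SE) on the log2 scale for EDNRB (adjusted p = 0.000859), whose other gated cells went from 11.5 to 16.0 CPM in early libraries to 1.31 to 19.8 CPM in late ones. For CDH6 it was 1.79 ± 0.405 (adjusted p = 0.0114), lost without E16 DZ (1.45), at a mitochondrial limit of 5% (1.08) and without both E16 libraries (1.23), and 0.94 without both E28 libraries. For TFAP2A it was 1.99 ± 0.567 (adjusted p = 0.0411) and was lost without any 1 of E16 ZZ, E16 DZ, E18 ZZ, E28 ZZ or E28 DZ, with values of 1.44 to 2.09. It was also lost with RLE size factors (1.93), with DESeq2 (2.35), at a mitochondrial limit of 5% (1.87), without both E16 libraries (1.48), without both E28 libraries (0.79) and without the chondrogenic gate (1.59), so the call held in 9 of 20 alternatives. For SCRG1 it was -1.18 ± 0.263 (adjusted p = 0.0105): the change was larger in other gated cells, which had 5.72 to 11.1 CPM in early and 12.8 to 44.5 CPM in late libraries. It was lost without both E16 libraries (-1.35), and it was -1.87 at a mitochondrial limit of 5%. Without both E28 libraries the EDNRB value was 2.66.

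TFAP2B and CDH19 did not pass this test. For TFAP2B the difference in log2 change was 0.61 (adjusted p = 0.599, edgeR), with other gated cells at 9.41 to 16.6 CPM in early and 0.698 to 14.7 CPM in late libraries. For CDH19 it was -0.10 (adjusted p = 0.982), and its sign changed under several alternatives: without E28 ZZ it was 1.23 (adjusted p = 0.220), and without both E28 libraries 1.94 (adjusted p = 0.0338). Without the chondrogenic gate among the other gated cells, an alternative chosen after seeing the data, it was -0.51. Without E16 ZZ or E18 ZZ it was 0.14 or 0.06.

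In the other gates, a member was followed with stage where at least 3 early and 3 late libraries had sums of 20 cells or more. In endothelial cells EDNRB was the single member with enough counts to test and was not called, where 26.5% of all genes were. In dermomyotome cells CDH6 was the single member tested and was not called, where 18.1% of all genes were. Its log2 change was -1.35 (adjusted p = 0.0894, edgeR). No member had enough counts in erythroid cells. These fits and the lists of markers give gates by RNA only, and the gated cells were not sorted.

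In neurons, CDH6 was 189 and 203 CPM at E16, 31.3 and 50.5 at E18, then 35.4 and 44.1 at E21, and 18.9 and 20.1 at E28. The E16 values stood apart from the rest. Summed neuron markers in this gate were 823 to 3624 CPM in early and 8330 to 10434 CPM in late libraries, so the gated cells differed between periods. At E16, 1 of 39 (ZZ) and 4 of 72 (DZ) of them held ISL1, PRPH or POU4F1. The part of this difference in the levels of CDH6 was not tested. The log2 change of CDH6 between periods was -2.01 ± 0.574 (SE; adjusted p = 0.0230, edgeR), in a gate where 14.3% of all genes fell. It was lost without E16 ZZ (-1.51), E16 DZ (-1.41) or E28 DZ (-1.75), and without both E16 or both E28 libraries it was -0.51 or -1.63 and not called. At a mitochondrial limit of 5% it was -0.77 (adjusted p = 0.341).

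In sclerotome cells, CDH6 had no UMI at E16, which allows up to 12.5 CPM in ZZ and 13.4 CPM in DZ, and was 2.50 and 1.16 at E18, then 34.4 and 16.3 at E21, and 16.6 and 37.0 at E28, and SCRG1 was 3.75 to 16.6 CPM in early and 28.6 to 131 CPM in late libraries. Early and late libraries did not overlap for either gene. CDH6 rose by 3.86 ± 0.510 on the log2 scale (SE; adjusted p = 0.000204, edgeR) and SCRG1 by 3.67 ± 0.556 (adjusted p = 0.000594), where 9.65% of all genes rose.

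In chondrogenic cells, all 3 members with a called change fell, where 12.9% of all genes fell. TFAP2A was 10.1 to 20.1 CPM in early and 0.191 to 2.68 CPM in late libraries (log2 change -3.54 ± 0.513, SE; adjusted p = 0.00171, edgeR). TFAP2B was 18.3 to 55.1 and 0.764 to 4.17 CPM (-3.89 ± 0.508; adjusted p = 0.00109). CDH6 was 43.2 to 161 and 10.5 to 34.3 CPM (-2.01 ± 0.531; adjusted p = 0.0205), lost without E21 DZ (-1.88), E28 DZ (-1.67), both E16 libraries (-1.47) or both E28 libraries (-1.47) and at a mitochondrial limit of 5% (-1.67). Without E16 DZ, the library that stood highest, it was -1.40. SOX10 UMIs were also more frequent in cells meeting this gate in early libraries, as given above, and cells with a SOX10 UMI are not in these sums. The part of cells whose SOX10 RNA went uncounted was not tested. Summed chondrogenic markers in this gate were 889 to 1146 CPM in early and 1857 to 6586 CPM in late libraries, so the gated cells differed between periods. The part of that difference in the changes of the members was not tested either.

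CDH19 in chondrogenic cells was 0.507 to 5.20 CPM in 7 libraries and 44.1 CPM in E28 ZZ. In E28 ZZ, 158 of 1169 chondrogenic cells held 231 CDH19 UMIs, against 2 to 13 cells in each of the other libraries. Of those 158 cells, 157 held COL2A1, the cartilage collagen, 148 held SOX9, its transcriptional regulator, and 83 held SCRG1. Of the other chondrogenic cells in that library, 973 held COL2A1, 790 SOX9 and 249 SCRG1. The E28 DZ library had 4.18 CPM in the same gate, so the level differed between the libraries of that stage, with 1 library each.

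In connective tissue cells, SCRG1 was 2.47 to 8.01 CPM in early and 9.28 to 23.4 CPM in late libraries, and EDNRB 4.94 to 8.01 and 0.353 to 3.59 CPM. SCRG1 rose by 1.82 ± 0.453 on the log2 scale (SE; adjusted p = 0.0187, edgeR), where 10.4% of all genes rose, and lost its call without E16 ZZ (2.06), E18 ZZ (1.67), E18 DZ (1.59) or both E16 libraries (2.43). EDNRB fell by 2.35 (SE 0.697; adjusted p = 0.0375), where 11.1% of all genes fell, and the call was lost without any of 7 libraries, with changes of -2.70 to -1.76, and also at a mitochondrial limit of 5% (-2.30), with no doublets removed (-1.35) and without both E16 (-1.95) or both E28 libraries (-1.44).

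**Figure D4:**
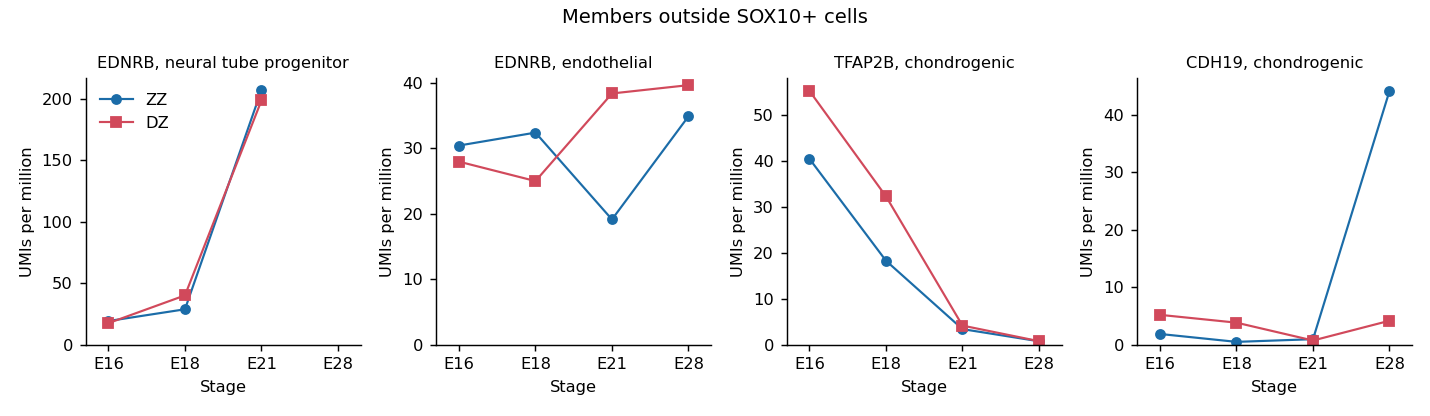
Levels in CPM by stage of EDNRB in neural tube progenitors and endothelial cells, and of TFAP2B and CDH19 in chondrogenic cells, with 1 point for each library. EDNRB in neural tube progenitors was highest at E21, TFAP2B fell in chondrogenic cells, and CDH19 in chondrogenic cells stood at 44.1 CPM in E28 ZZ alone.

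EDNRB in neural tube progenitors was 19.3 and 17.6 CPM at E16, 28.8 and 40.1 at E18, and 207 and 198 at E21, with too few cells at E28. These E21 levels were near those of the SOX10+ cells, and the gate was left untested because only 2 late libraries had 20 cells. In endothelial cells EDNRB was 19.1 to 39.6 CPM, with a log2 change of 0.05 between periods (adjusted p = 0.909, edgeR). TFAP2B in epithelial cells was 37.8 to 103 CPM up to E18 and 407 CPM in the 37 epithelial cells of E21 ZZ. TFAP2A in neurons with PAX2, LBX1 or LHX1 was 53.6 and 46.7 CPM at E21.

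Ordered by their mean over libraries, the gates had SOX10+ cells first for each of the 6 tested members. This order pools stages, and gates were measured in different libraries. At E16, CDH6 was higher in the 39 and 72 cells of the neuron gate (189 and 203 CPM), whose neuron markers were low, than in SOX10+ cells (96.7 and 148 CPM). In E21 ZZ, TFAP2B was 407 CPM in epithelial and 141 CPM in SOX10+ cells. TFAP2A had 72.0 ± 25.5 CPM (SD, n = 8) in SOX10+ cells, followed by 50.1 ± 4.89 (n = 2) in the PAX2, LBX1 or LHX1 neurons and 48.8 ± 23.3 (n = 5) in epithelial cells, 3 levels whose library values overlapped. TFAP2B had 145 ± 52.2 CPM (n = 8) in SOX10+ cells and 132.9 ± 154.9 (n = 5) in epithelial cells, whose library values overlapped, then 45.9 ± 30.3 (n = 2) in the PAX2, LBX1 or LHX1 neurons, 27.3 ± 16.1 in all neurons and 19.4 ± 20.9 in chondrogenic cells. EDNRB had 148.6 ± 120.4 CPM, 85.2 ± 91.4 (n = 6) in neural tube progenitors and 30.9 ± 6.88 (n = 8) in endothelial cells, and these ranges overlapped across stages.

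CDH6 had 261 ± 96.9 CPM (n = 8) in SOX10+ cells, then 74.1 ± 76.2 (n = 8) in neurons, 51.6 ± 30.5 (n = 5) in epithelial cells and 46.9 ± 49.0 (n = 8) in chondrogenic cells, the last 3 overlapping. The lowest SOX10+ level of CDH6, 96.7 CPM, was below the highest of neurons (203 CPM) and of chondrogenic cells (161 CPM). CDH19 had 61.8 ± 40.4 CPM in SOX10+ cells and 7.68 ± 14.8 in chondrogenic cells, which overlapped through the E28 ZZ sum of 44.1 CPM, and its mean was at most 1.46 CPM in every further gate. SCRG1 had 483 ± 101 CPM in SOX10+ cells, apart from 82.9 ± 38.3 in chondrogenic and 43.5 ± 50.1 in sclerotome cells, which overlapped.

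**Figure D5:**
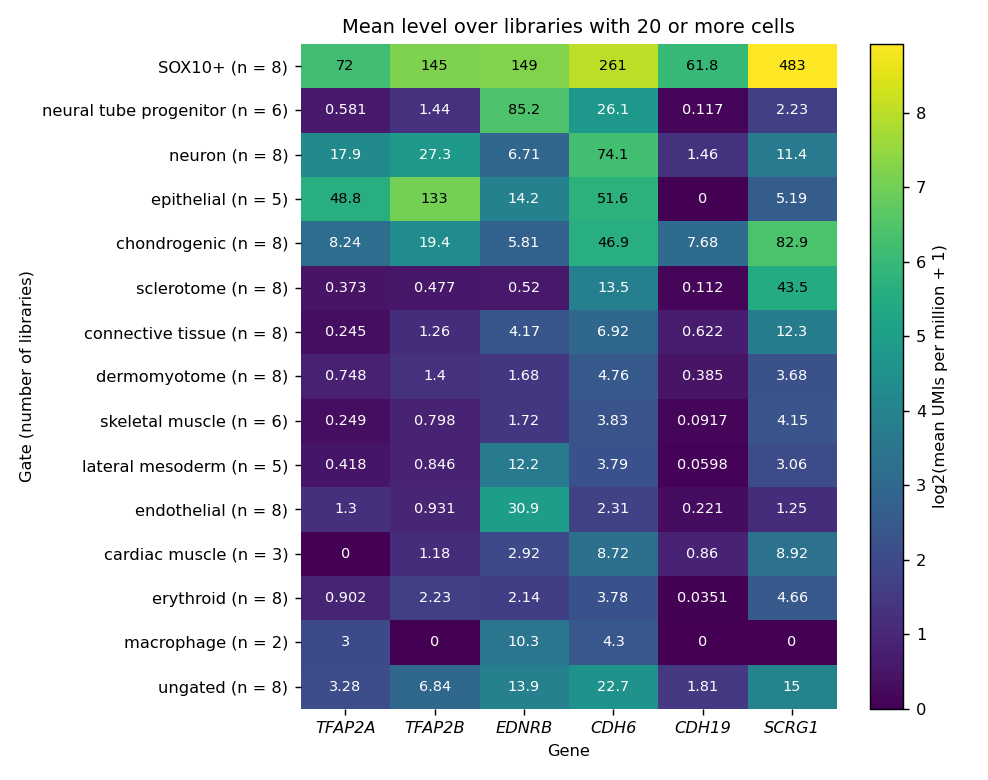
Mean level of each member but FOXD3 in each gate over the libraries with at least 20 cells of that gate, in CPM on a log scale. SOX10+ cells had a mean of 148.6 CPM for EDNRB and 61.8 CPM for CDH19, and CDH6 was next highest in neurons at 74.1 CPM.

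Members were often counted in the same SOX10+ cells. At least 4 of the 7 were counted in 20.7% and 20% of the cells at E16, 38.5% and 42.3% at E18, then 50.5% and 43.6% at E21, and 35.7% and 29% at E28, and none in 7.76% to 25.8%. TFAP2A and TFAP2B were counted together in 354 early cells, against 285.8 if the genes were independent within each library, and in 206 late cells, against 141.1. EDNRB was counted in 295 of the 396 late cells with CDH19 (74.5%) against 203.2 if independent, a ratio of 1.45, and in 59 of the 210 early cells with CDH19 (28.1%) against 54.7, a ratio of 1.08. Summed over the 4 libraries of a period, the count was above that for independent genes for every pair of members without FOXD3. In single early libraries, EDNRB with CDH19 was above it in 2 of 4, and TFAP2A or CDH6 with CDH19 in 3 of 4. In late ones, TFAP2A with CDH19 and TFAP2B with EDNRB were above it in 3 of 4. The ratios of these sums were 1.08 to 1.26 in early and 1.11 to 1.46 in late cells. Cells differ in depth and some held no member, and the part of either in these counts was not tested.

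The genes most like each member over 91 sums of gate and library were ranked by Pearson's r of log2(CPM + 1) among 9929 genes, as a description over sums that share libraries and differ in depth. TFAP2A and TFAP2B were each other's nearest gene (r = 0.937), followed by DLX1 (0.740) and CDH6 (0.734) for TFAP2A, and by CDH6 (0.782) and PPP2R2B (0.759) for TFAP2B. For CDH6, TFAP2B was nearest, followed by CELSR2 (0.741) and TFAP2A. SOX10 (0.859) and DLX1 (0.814) were among the 3 nearest genes of CDH19, and CDH19 (0.774) and MIA (0.770) among those of SCRG1. EDNRB was nearest to MGST1 (0.747), the unnamed gene ENSSSCG00000046234 (0.664) and PLAT (0.640). SOX10 was 0 in every sum but those of SOX10+ cells because the gate removed it, so its likeness to a gene high in SOX10+ cells was set by that rule. The few FOXD3 counts gave FHDC1 (0.546), SOX10 (0.541) and COL5A3 (0.534).

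Other genes of the same lineage were read from lists, and their counts stand against the 14.7% of all genes that rose and the 13.1% that fell. Of the glial and Schwann precursor list, 11 of 12 tested genes rose from early to late in SOX10+ cells and none fell, with a median log2 change of 1.48. DHH, the hedgehog ligand of Schwann cells, had 0 UMIs in early and 44 in late SOX10+ cells, at least 21.6-fold higher in late cells (with early set at 3 counts over the group). The retinoid receptor gene RXRG changed by 4.20 (adjusted p = 2.35e-05, edgeR) and FABP7, a fatty acid binding protein of early glia, by 2.90 (adjusted p = 1.27e-05). The gene that did not pass was ERBB3 (-0.13, adjusted p = 0.600). The stage change differed from that in other gated cells for few genes of this list. The difference was above 0 for 2 and below 0 for 1 of 13 tested, against 5.67% and 2.66% of all genes. In dermomyotome cells 5 of 7 tested genes of the list rose and 1 fell, and in connective tissue cells 4 of 8 rose and 0 fell. In each further gate with a fit, 0 to 3 rose and 0 to 3 fell.

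Of the melanoblast list, 3 of 4 tested genes rose: the receptor KIT by 2.17 (adjusted p = 0.000269, edgeR), the pigment enzyme DCT by 1.86 (adjusted p = 0.00989) and the factor MITF by 1.48 (adjusted p = 0.0325), while PMEL had a log2 change of 3.82 (adjusted p = 0.0781). Of 11 tested neural crest specifiers, SOX5 rose by 0.99 and MSX1, SNAI1 and ETS1 fell by 3.304, 1.23 and 0.75. In the sensory and autonomic list, PRPH and ISL1 rose by 2.67 and 2.04 and RET fell by 2.32, of 4 tested. Of the endothelin system, the other receptor EDNRA was the single gene tested and did not pass (-0.09, adjusted p = 0.763), so EDNRB and EDNRA had different results in the same test without a test between them. KCTD15, an inhibitor of AP-2 factors, fell by 0.63, the single call among 3 tested AP-2 relatives. Of 6 tested other cadherins and catenins, CDH15, CDH2 and CTNNB1 rose by 2.37, 1.08 and 0.71. Several of these calls were lost when 1 library was left out: MITF without E16 ZZ, E16 DZ, E18 ZZ, E28 ZZ or E28 DZ (1.06 to 1.54), RET without E16 DZ, E18 DZ, E21 DZ, E28 ZZ or E28 DZ (-2.42 to -2.03), PRPH without E18 ZZ, E18 DZ or E28 DZ (1.90 to 2.30), CDH15 without E18 ZZ or E28 DZ (2.10 and 2.18), SOX5 without E21 DZ (0.82), and KCTD15 without any library but the E21 libraries (-0.68 to -0.50). At a mitochondrial limit of 5%, SOX5 (0.98), SNAI1 (-0.71), ISL1 (1.66), KCTD15 (-0.66) and CTNNB1 (0.56) were not called. Without both E16 libraries, DCT (1.44), SNAI1 (-1.03) and CTNNB1 (0.51) were not, and without both E28 libraries DCT (1.55) was not. Over all alternatives the call held in 6 of 19 for KCTD15, 6 of 14 for RET, 9 of 14 for PRPH, 10 of 17 for MITF, 12 of 16 for CDH15 and 15 of 19 for SOX5. CDH15 was 3.69 without E18 DZ and RET -4.72 without E21 ZZ. PMEL was called without E21 ZZ (4.40) and was 0.50 without E28 ZZ, and EDNRA was 0.09 without E18 DZ and 0.04 without E28 DZ.

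Set against other gated cells, where 6.87% of all genes were higher and 15.1% lower, SOX10+ cells were higher in 11 of 13 tested glial genes, with a log2 difference of 6.90 for INSC, and lower in GAP43 (-2.03). All 4 tested AP-2 relatives were higher, with TFAP2C at 2.50, CITED2 at 0.77 and KCTD1 at 0.61. Of 13 other cadherins and catenins, the catenin CTNNA1 was the single gene called higher (0.22) and 5 were lower, with CDH15 at -2.70, CDH5 at -2.26 and CDH4 at -2.09. Of 13 crest specifiers, 4 were higher, with PAX3 at 1.54, ETS1 at 1.43 and SOX5 at 1.30, and 4 were lower, with ZIC1 at -1.57, SNAI2 at -1.37 and MSX1 at -0.94. Of 6 neurogenesis genes, 1 was higher and 4 were lower, with TH at -2.63, HAND2 at -1.98 and PRPH at -1.75. DCT (1.96) and MITF (1.54) were the 2 of 4 melanoblast genes that were higher, and none of the 3 endothelin genes was called. The KCTD1 call was lost without any 1 library but E21 DZ (0.48 to 0.66) and that of ZIC1 without E21 ZZ, E21 DZ or E28 DZ (-1.45 to -1.25). At a mitochondrial limit of 5%, KCTD1 (0.58), ZIC1 (-1.04) and CDH4 (-1.51) were not called. Over all alternatives the call held in 7 of 20 for KCTD1, 14 of 20 for ZIC1 and 18 of 20 for CDH4. EDNRA was called without E28 ZZ (0.70) and without both E28 libraries (0.91).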

How the data were processed

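The values used were UMI counts per gene and cell, which the authors deposited as filtered matrices. Per the labels and the study's methods, reads were aligned to Sscrofa11.1 with the Ensembl 98 annotation by Cell Ranger, version 3.1.0 for E16 and 3.0.2 for the other libraries. Of 90688 barcodes, those with at least 200 genes, at most 30000 UMIs and at most 10% of UMIs from 13 mitochondrial genes were kept. Doublets were then removed by rank of Scrublet score, at 0.8% per 1000 barcodes, since its automatic cut-off marked 0 to 3 barcodes in 7 libraries (320 in E21 ZZ). No columns of values were left out.

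SOX10+ took precedence over the other gates. A cell entered another gate with UMIs of at least 2 or 3 of its markers, and of several gates passed the one with the highest share of markers was taken. Counts were summed per library and gate over at least 20 cells and tested with edgeR 4.0.16 in R 4.3.3 (TMM, filterByExpr, quasi-likelihood F-test, Benjamini-Hochberg at 0.05 over all genes tested). CPM are counts per 1000000 UMIs of the summed cells. The thinned shares used 2000 UMIs per cell. Cells were filtered and thinned with scanpy 1.11.5, numpy 2.4.6, pandas 2.3.3 and scipy 1.17.1 in Python 3.11.15, and figures were drawn with matplotlib 3.10.9. The edgeR fits between kinds of cells, between periods, between breeds, from E18 to E21 and of the stage change were run on simulated counts. The other tests were not.

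The members and the lists of other genes and markers were chosen with earlier results of these data known. All members were named. From each list, up to 3 called genes per direction with the largest log2 change were named, PMEL, EDNRA and ERBB3 after their values were seen. Some genes that this rule or the ranking by likeness names are not reported here. The 3 most similar genes came from those with a mean of at least 5 CPM, with a pseudocount of 1 CPM, and FOXD3 itself was below that mean. The alternatives were DESeq2 1.42.0, RLE size factors (limma 3.58.1 was loaded by edgeR), no filter on low counts, a mitochondrial limit of 5%, no removal of doublets, at least 1000 UMIs per cell, SOX10+ as 2 UMIs or more or without cells of another gate, all cells without a SOX10 UMI as the comparison, other covariates, and leaving out libraries or a stage. The fits within other gates under these alternatives, and other gated cells without the chondrogenic gate, were chosen after seeing the data.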

Additional observations from a re-analysis of the deposited data

Results flagged for a closer look

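Dixon's test was run on 35 groups of 4 libraries and marked 6, where chance marks about 1 in 20 groups. In late SOX10+ cells, EDNRB was lowest in E21 ZZ, at 215.6 CPM against 269.7 to 277.7 CPM in the other 3 libraries, and SCRG1 was lowest in E28 DZ, at 520.7 CPM against 581 to 589 CPM. In chondrogenic cells, CDH6 was 161 CPM in E16 DZ against 43.2 to 52.7 CPM in the other early libraries, CDH19 was 44.1 CPM in E28 ZZ against 0.745 to 4.18 CPM in the other late libraries, and SCRG1 was 48.3 CPM in E28 DZ against 110 to 118 CPM. In late connective tissue cells, SCRG1 was 9.28 CPM in E28 DZ against 22.0 to 23.4 CPM. SCRG1 was thus the low value of E28 DZ in all 3 gates, which share that library.

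The change from early to late differed between SOX10+ and other gated cells, by edgeR's test of the interaction, for TFAP2A (1.99 on the log2 scale), EDNRB (4.05), CDH6 (1.79) and SCRG1 (-1.18). Their errors and adjusted p-values are given with the comparison above, together with the libraries without which TFAP2A and CDH6 lost the call.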

How the results depend on the processing

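Each of 98 results was recomputed under the alternatives, giving 1799 values. Of these, 1541 kept direction and side of the threshold (counts: within 1.5 times), 129 lost the call, 20 gained it, 94 counts or percents moved and 15 changed sign. The call of all 6 members higher in SOX10+ cells, and of EDNRB and CDH19 between periods, held under every alternative run. The cause of the changes was not tested.

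Changes of sign concerned values that were not called in the main comparison. The difference in stage change of CDH19 was 0.24 with DESeq2, 0.23 with SOX10+ as 2 UMIs or more, 0.24 without the E16 and 1.94 without the E28 libraries, and -0.69 to 1.23 with 1 library left out (0.14 without E16 ZZ, 0.06 without E18 ZZ, 1.23 without E28 ZZ). That of TFAP2B was -0.49 without the E28 libraries. The EDNRA change between periods was 0.106 with SOX10+ as 2 UMIs or more, 0.047 without the E28 libraries and -0.189 to 0.092 with 1 library left out (0.041 without E28 DZ). The difference in the SOX10+ share was 0.137 points thinned, 0.227 without the E28 libraries and -1.11 to 0.517 with 1 library left out (0.517 without E18 DZ).

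Between periods, 5 members were called with no filter on low counts, with no doublets removed, with SOX10+ as 2 UMIs or more, or with no breed covariate. From E16 to E18, 1 member was called with DESeq2 or with SOX10+ as 2 UMIs or more and 0 at a mitochondrial limit of 5%, and 0 to 2 with 1 library left out. From E18 to E21, 2 to 4 were called with 1 library left out. In the stage change, 2 were called at a mitochondrial limit of 5%, 1 without the E16 libraries and 2 to 4 with 1 library left out. In neurons, 2 were called with no filter, 0 at the 5% limit or without the E16 libraries, and 0 to 2 with 1 left out. In chondrogenic cells, 5 were called with no filter. In connective tissue, 1 was called at the 5% limit, with no doublets removed or without the E28 libraries, 0 without the E16 libraries and 0 to 2 with 1 left out.

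The percent of all genes called moved as follows. At a mitochondrial limit of 5% it was 12.8% for SOX10+ against other gated cells (22% in the main comparison), 15% between periods (27.7%), 0.114% from E16 to E18 (1.49%), 5.32% from E18 to E21 (16.9%), 1.55% from E21 to E28 (3.56%), 0 between breeds (0.0515%), 3.44% in the stage change (8.33%), 13.1% in neurons (28.9%) and 11.5% in sclerotome cells (17.9%). Without the E16 libraries it was 13.3% between periods, 0.0299% between breeds, 3.74% in the stage change, 9.43% in neurons, 8.2% in sclerotome, 8.14% in chondrogenic (26.7%) and 4.89% in connective tissue cells (21.5%). Without the E28 libraries it was 15.9% between periods, 2.71% from E16 to E18, 0.164% between breeds and 14.9% in chondrogenic cells. DESeq2 called 0.525% from E16 to E18, 6.76% from E18 to E21, 1.28% from E21 to E28 and 0.0206% between breeds. With no filter it was 2.61% from E16 to E18 and 0.47% between breeds, without cells of another gate 0.885% from E16 to E18 and 1.69% from E21 to E28. Between breeds it was 0.126% with SOX10+ as 2 UMIs or more, 0.0196% with no doublets removed and 0 with no stage block. With 1 library left out it was 0.286% to 2.6% from E16 to E18, 6.5% to 18.7% from E18 to E21, 1.29% to 3.31% from E21 to E28, 0.0591% to 0.165% between breeds, 16.4% to 27.6% in neurons, 10.4% to 20.4% in sclerotome, 16.8% to 27.3% in chondrogenic and 10.7% to 23.8% in connective tissue cells.

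No paired analysis was possible because the labels give no shared replicate numbers, beyond the library and stage blocks that the comparisons already had.
With 1 library per stage and breed, single libraries decided several calls, and where a library of a stage was left out its lone partner was assumed to vary like the other stages. The SOX10+ cells were chosen by 1 UMI or more and hold cells that also met other gates. FOXD3 had too few counts to be tested.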
